A study of Mus musculus with 15 samples.

Results

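Interferon-stimulated genes are the genes that cells switch on after interferon binds its receptor, and 44 gene symbols of this kind were followed in mouse liver. The 44 symbols were taken from a list of well known interferon-stimulated genes. No measured value served as a criterion, but earlier results of these data were known when the symbols were chosen. Of the 44 symbols, 43 had rows in the mRNA table, and Mx2 was not analysed here. The 43 symbols covered 44 of the 21949 gene identifiers in the table, because Gbp6 stood on 2 identifiers, and 95 of its 50660 transcripts. A gene was tested when it had at least 1 FPKM (a level per transcript length and per mapped fragment total of the library) in at least 2 libraries, and 42 of the 44 identifiers were among the 11557 genes that passed. Mx1, an antiviral dynamin-like GTPase, did not pass, with 0.199 to 0.966 FPKM over the 10 libraries. The other untested identifier carrying the symbol Gbp6 reached at most 0.0194 FPKM, so Gbp6 below means the identifier that was tested.

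All animals were male wild-type C57BL/6 mice whose livers were taken at 40 weeks of age, and the labels sort them into 5 groups. H1D mice were sons of F0 mothers, H2D mice sons of F1 mothers and H3D mice sons of F2 mothers, in a line whose females ate a high-fat diet from month 1 to month 3. Mice of these 3 groups ate the high-fat diet themselves (60% of energy from fat) and were injected with DEN (diethylnitrosamine, a liver carcinogen) at 2 weeks of age. NCD mice received DEN at the same age and were kept on normal chow, and Nor mice received PBS and chow. The diet that the mothers of NCD and Nor mice ate is not spelled out in the labels. Each group had 4 to 8 animals, whose RNA was pooled into 2 libraries, so the p-values below measure the spread between pools and not the spread between animals. Against NCD, the H1D, H2D and H3D groups change both the animals' own feed and the maternal line, and these cannot be told apart. The NCD pools enter both the comparison with Nor and each comparison of a high-fat group with NCD, so those comparisons are not independent.

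Type I interferons signal through a receptor and the JAK kinases to a complex that contains STAT2 and IRF9 and binds the interferon-stimulated response element (ISRE) in promoters. Interferon gamma signals through its own receptor to a second promoter element, the gamma-activated site (GAS). The induced genes block viral translation and replication, sense foreign nucleic acid, attack intracellular vacuoles and feed back on the pathway itself. In the liver, hepatocytes, Kupffer cells, endothelial cells and infiltrating lymphocytes can all express them.

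The libraries showed liver RNA, with summed FPKM of 8 hepatocyte marker genes between 50032 and 89439 per library. The deposited FPKM summed to 568823 to 784456 per library, and mitochondrially encoded genes took 8.27% to 16.2% of the sum. Both differed by group: Nor had the highest sums (784456 and 772100) and shares (12.1% and 16.2%), and H3D the lowest (568823 and 582521, with 8.66% and 8.27%). What part this had in the members' values was not tested, other than by scaling to equal sums. The number of reads behind the values is not given, so depth is unknown and counting error cannot be stated. None of 10 housekeeping genes was at 0 in any library. The log2(FPKM + 0.5) values of the 2 pools of a group correlated across genes with Pearson's r of 0.978 (Nor) to 0.991 (NCD), as a description only, since genes are not independent replicates.

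The promoters of 6 members are shown because they carry the ISRE core and belong to members with the smallest p in the comparison of DEN with PBS livers below. Each is the 250 bases upstream of the transcription start, 5′ to 3′ on the gene's strand, from RefSeq on GRCm38.p6, with every match to the ISRE core in capitals. The core was searched as GAAA, any 2 bases and GAAA again, on both strands and with overlapping matches counted, so a match on the opposite strand reads TTTC, any 2 bases and TTTC. Oas1a lies at chr5:120907526-120907775 on the minus strand, Gbp2 at chr3:142620413-142620662 on the plus strand and Rsad2 at chr12:26456453-26456702 on the minus strand. Ifit3 lies at chr19:34583279-34583528 on the plus strand, Isg15 at chr4:156200819-156201068 on the minus strand and Tgtp1 at chr11:48992247-48992496 on the minus strand.
Oas1a: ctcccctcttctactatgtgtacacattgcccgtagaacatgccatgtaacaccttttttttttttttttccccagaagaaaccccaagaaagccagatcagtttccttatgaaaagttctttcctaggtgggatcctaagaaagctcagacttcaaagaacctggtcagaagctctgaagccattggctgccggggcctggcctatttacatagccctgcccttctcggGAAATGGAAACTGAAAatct
Gbp2: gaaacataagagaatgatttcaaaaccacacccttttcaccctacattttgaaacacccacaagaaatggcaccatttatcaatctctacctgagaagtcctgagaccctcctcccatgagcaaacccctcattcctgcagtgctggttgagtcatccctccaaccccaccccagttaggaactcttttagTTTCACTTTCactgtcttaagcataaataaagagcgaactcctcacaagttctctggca
Rsad2: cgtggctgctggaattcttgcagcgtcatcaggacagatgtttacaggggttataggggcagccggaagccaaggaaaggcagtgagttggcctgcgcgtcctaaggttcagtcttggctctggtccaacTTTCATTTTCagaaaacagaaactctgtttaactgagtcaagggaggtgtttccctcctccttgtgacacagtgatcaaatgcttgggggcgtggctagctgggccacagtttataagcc
Ifit3: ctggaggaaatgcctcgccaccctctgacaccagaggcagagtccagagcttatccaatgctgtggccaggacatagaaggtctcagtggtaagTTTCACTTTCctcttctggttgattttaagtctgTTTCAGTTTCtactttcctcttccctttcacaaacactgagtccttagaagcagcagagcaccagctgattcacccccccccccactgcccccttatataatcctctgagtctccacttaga
Isg15: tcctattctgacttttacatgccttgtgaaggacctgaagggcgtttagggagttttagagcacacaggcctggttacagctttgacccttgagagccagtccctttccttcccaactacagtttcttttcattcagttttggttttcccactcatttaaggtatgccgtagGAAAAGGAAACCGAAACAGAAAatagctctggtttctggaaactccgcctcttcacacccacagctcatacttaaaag
Tgtp1: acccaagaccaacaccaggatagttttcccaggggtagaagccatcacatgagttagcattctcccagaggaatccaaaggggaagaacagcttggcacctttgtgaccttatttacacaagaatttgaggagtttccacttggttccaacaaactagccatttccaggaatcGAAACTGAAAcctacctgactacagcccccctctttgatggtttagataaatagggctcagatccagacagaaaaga

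In these windows counting -1 as the base just before the start, the match began at -20 and -14 in Oas1a, -59 in Gbp2, -120 in Rsad2, -156 and -122 in Ifit3, and -77 in Tgtp1. Isg15 held 3 overlapping matches, which began at -78, -72 and -66. Promoter entries of 300 bases (250 before and 50 after the start) were given for 32 of the 43 symbols. Of these 32 members, 20 (62.5%) held the ISRE core, against 1079 of 27025 genes (3.99%) with an entry in the same table. All 6 interferon-inducible GTPases with an entry held it (Gbp2, Gbp3, Gbp7, Igtp, Irgm1 and Tgtp1), as did 4 of 6 OAS and PKR genes and 3 of 4 IFIT genes. Ifit2 had no such match, and of the 4 transcription factor genes Stat2 alone had one. The GAS letters TTCNNNGAA, which can overlap an ISRE match, were found in 10 of the 32 members (31.2%), against 2582 of the 27025 genes (9.55%). Oas1a, Eif2ak2, Bst2, Gbp7, Igtp and Tgtp1 held both motifs. A match says only that these letters occur, and the members were listed as interferon-stimulated genes to begin with.

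**Figure D1:**
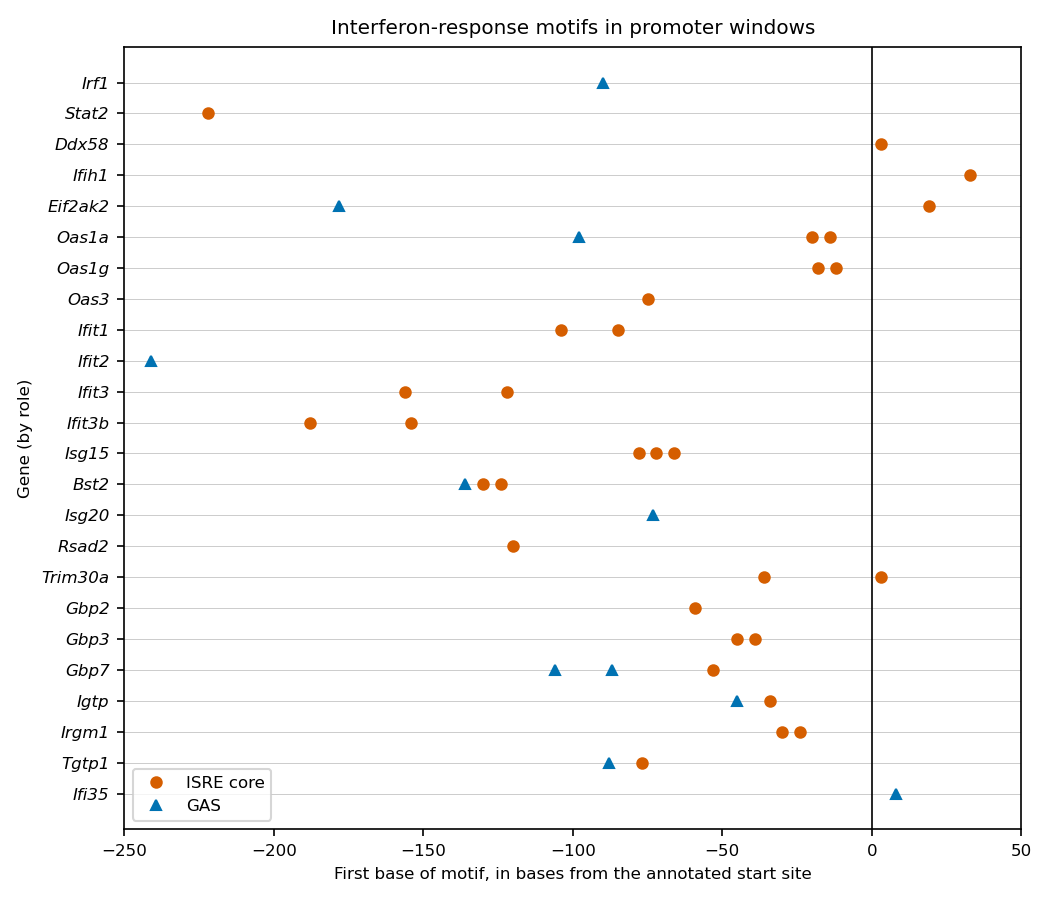
Position of ISRE core (GAAA, any 2 bases, GAAA) and GAS (TTCNNNGAA) matches, in bases from the transcription start, in the promoter windows of members that hold at least 1 match. Each mark is 1 match on either strand. The ISRE core was present in 20 of 32 members with an entry and GAS in 10.

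The comparison of NCD with Nor livers asks what differs at 40 weeks after DEN under the same diet. Of the 42 tested members, 28 were higher in NCD livers and none was lower, by limma with Benjamini-Hochberg adjusted p below 0.05 over all 11557 genes. Over all tested genes, 7.93% were called higher and 6% lower. The median log2 change of the members, on log2(FPKM + 0.5), was 0.95, beside -0.04 over all tested genes, and 41 of 42 members had a positive change. The 2 NCD pools both stood above the 2 Nor pools for 37 members, against 27% of all genes, and both below for 1 member, Dtx3l, against 32.7%. In pooled bulk RNA, more cells of an expressing type and more RNA per cell cannot be told apart.

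The filter on low values bears on some of these calls. Among members at 1 FPKM or more in both Nor pools, 21 of 34 (61.8%) rose, where 510 of 10065 such genes (5.07%) rose. The 8 remaining members (Ifit3b, Oas1a, Oas1g, Oas2, Oas3, Tgtp1, Cmpk2 and Ifi44) were under 1 FPKM in at least 1 Nor pool, and 7 of these were called. Oas2 and Oas3 were under 1 FPKM in the NCD pools too and passed the filter through the high-fat groups. The count of 28 became 16 with no filter, 13 with quantile scaling and 14 with the NCD and Nor groups fitted alone. Leaving out NCD replicate 1 gave 4 calls, leaving out NCD replicate 2 gave 9 and leaving out Nor replicate 1 gave 13. Zbp1, Oas1a, Gbp2 and Rsad2 kept their call whichever library was left out.

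**Figure D2:**
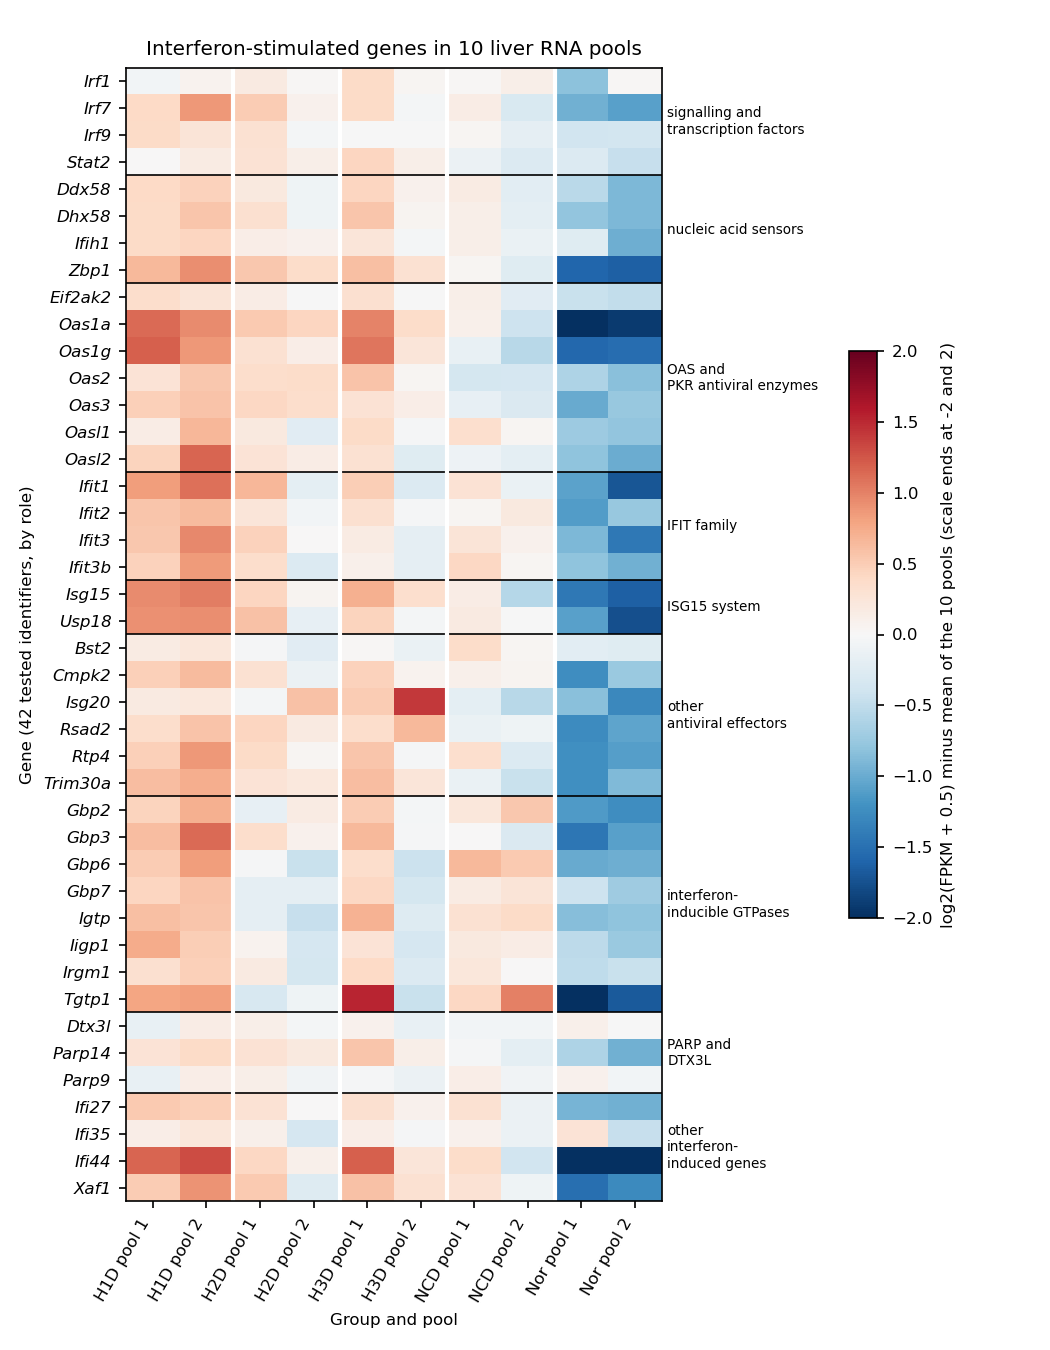
Heat map of the member genes, grouped by role, in the 10 pooled libraries (columns H1D, H2D, H3D, NCD, Nor). Colour gives log2(FPKM + 0.5) minus the gene's mean over the 10 libraries. The Nor columns are lowest for most genes, and 33 of 42 members had their highest group mean in H1D.

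Among sensors of nucleic acid, 3 of 4 rose in NCD livers. Zbp1, a receptor for Z-form nucleic acid that can start necroptosis (chr2:173206612-173218959 on GRCm38), had the smallest p of all members. It stood at 12.4 and 10.0 FPKM in NCD and at 3.67 and 3.54 FPKM in Nor, a log2 change of 1.5 ± 0.15 (SE, adjusted p = 0.00141). Dhx58, which encodes the regulator LGP2, stood at 5.19 and 4.10 FPKM in NCD and at 2.53 and 2.31 FPKM in Nor (0.81 ± 0.20, adjusted p = 0.0386). Ddx58, which encodes the RNA sensor RIG-I, stood at 11.5 and 8.72 FPKM in NCD and at 6.83 and 5.24 FPKM in Nor (0.70 ± 0.19, adjusted p = 0.0453). For each of these genes both NCD pools lay above both Nor pools. Ifih1, which encodes the RNA sensor MDA5, had a log2 change of 0.60 ± 0.22 and was not called (adjusted p = 0.104).

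All 4 IFIT genes rose. They encode proteins that bind viral RNA ends and block its translation, and they lie side by side on chromosome 19 between 34550550 and 34650009. Ifit3 stood at 10.9 and 9.54 FPKM in NCD and at 4.61 and 3.02 FPKM in Nor, a log2 change of 1.33 ± 0.24 (adjusted p = 0.0142). Ifit2 stood at 3.46 and 3.92 FPKM in NCD and at 1.28 and 1.78 FPKM in Nor (1.05 ± 0.18, adjusted p = 0.0108). Ifit3b stood at 3.05 and 2.24 FPKM in NCD and at 1.03 and 0.880 FPKM in Nor (1.10 ± 0.24, adjusted p = 0.0266). Every NCD pool was above every Nor pool for these genes, and for Ifit1 (1.48 ± 0.36, adjusted p = 0.0354) as well. Ifit3 and Ifit3b are near copies of each other, so the split of reads between them is uncertain.

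Both genes of the ISG15 system rose. Isg15 encodes a ubiquitin-like modifier, and it stood at 19.8 and 11.9 FPKM in NCD and at 6.29 and 5.40 FPKM in Nor, a log2 change of 1.32 ± 0.24 (adjusted p = 0.0146). Usp18 encodes the protease that removes ISG15 and dampens the type I receptor, and it stood at 6.28 and 5.48 FPKM in NCD and at 2.34 and 1.28 FPKM in Nor (1.5 ± 0.29, adjusted p = 0.0184). The modifier and its protease were thus higher together, with no overlap of the groups.

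Of 7 genes for oligoadenylate synthetases (OAS), their relatives and PKR, 4 rose. The synthetases make the oligoadenylates that activate RNase L, and all of these genes but Eif2ak2 lie on chromosome 5. Oas1a stood at 5.95 and 4.03 FPKM in NCD and at 0.861 and 1.10 FPKM in Nor, a log2 change of 1.87 ± 0.23 (adjusted p = 0.00339). Its neighbour Oas1g stood at 1.56 and 1.07 FPKM in NCD and at 0.272 and 0.297 FPKM in Nor (1.20 ± 0.27, adjusted p = 0.0276). Oasl1, known in mice to restrain translation of Irf7 mRNA, stood at 7.10 and 5.70 FPKM in NCD and at 3.12 and 2.97 FPKM in Nor (0.95 ± 0.22, adjusted p = 0.0310). In each case the lower NCD pool was above the higher Nor pool. Oas3 was called as well (0.66 ± 0.17, adjusted p = 0.0386) but its level was between 0.153 and 0.670 FPKM in the NCD and Nor pools, and quantile scaling turned its change to -0.13 (adjusted p = 0.623). Oasl2 (0.75), Eif2ak2, the gene for PKR (0.42), and Oas2 (0.38) had positive log2 changes without a call. Oas1a and Oas1g are close paralogs whose reads may be shared.

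Of 8 tested interferon-inducible GTPases, which attack the membranes of intracellular pathogens, 6 rose. Gbp2, a guanylate-binding protein gene, stood at 5.28 and 6.68 FPKM in NCD and at 1.73 and 1.57 FPKM in Nor, a log2 change of 1.58 ± 0.21 (adjusted p = 0.00452). Gbp6 stood at 9.43 and 8.68 FPKM in NCD and at 2.68 and 2.74 FPKM in Nor (1.57 ± 0.25, adjusted p = 0.00969). Tgtp1, a T-cell-specific GTPase gene of the immunity-related (IRG) family, stood at 6.08 and 9.40 FPKM in NCD and at 0.700 and 1.05 FPKM in Nor. Its log2 change of 2.57 ± 0.53 (adjusted p = 0.0216) was the largest of the 42 members and had the largest standard error. Igtp (1.17), Gbp3 (1.13) and Iigp1 (0.81) rose too. Iigp1, with Bst2 and Ifi27 among the 3 most abundant members, stood at 218 and 212 FPKM in NCD and 133 and 114 FPKM in Nor. Gbp7 (0.77 ± 0.22, adjusted p = 0.0563) and Irgm1 (0.60 ± 0.24, adjusted p = 0.126) were not called. Gbp genes, and Tgtp1 with its near copy Tgtp2, can share reads.

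Of 6 other antiviral effectors tested, 4 rose. Rsad2 encodes viperin, which makes a chain-terminating nucleotide, and it stood at 4.46 and 4.66 FPKM in NCD and at 1.79 and 2.14 FPKM in Nor (log2 change 1.04 ± 0.15, adjusted p = 0.00611). Cmpk2, its chromosomal neighbour and a nucleotide kinase gene, stood at 3.13 and 3.01 FPKM in NCD and at 0.940 and 1.53 FPKM in Nor (1.06 ± 0.21, adjusted p = 0.0202). Rtp4, a receptor-transporting protein gene, stood at 13.6 and 8.71 FPKM in NCD and at 4.29 and 4.71 FPKM in Nor (1.19 ± 0.26, adjusted p = 0.0259). These groups did not overlap, and Trim30a, a TRIM-family gene, rose by 0.76 ± 0.17 (adjusted p = 0.0286). Bst2, the gene for tetherin, which holds budding virions on the cell surface, had a log2 change of 0.43 ± 0.13 without a call (adjusted p = 0.0594). Isg20, a 3′ exonuclease gene, had 0.69 ± 0.32 (adjusted p = 0.177).

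Of 4 other interferon-induced genes, 3 rose. Ifi44 stood at 6.04 and 3.39 FPKM in NCD and at 0.555 and 0.621 FPKM in Nor, a log2 change of 2.21 ± 0.33 (adjusted p = 0.00702). Ifi27, which encodes a small mitochondrial or nuclear-envelope protein, stood at 189 and 142 FPKM in NCD and at 79.9 and 78.7 FPKM in Nor (1.04 ± 0.16, adjusted p = 0.00758). Xaf1, a gene that promotes apoptosis, stood at 5.78 and 4.33 FPKM in NCD and at 1.30 and 1.62 FPKM in Nor (1.5 ± 0.27, adjusted p = 0.0144). Ifi27 thus combined a high level with a clear separation of the groups. Ifi35 had 0.07 ± 0.24, and its Nor pools of 17.1 and 10.0 FPKM enclosed the NCD pools of 14.8 and 12.8 FPKM.

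The transcription factor genes had a median log2 change of 0.38 in NCD against Nor, and the PARP and DTX3L group one of 0.02, the lowest medians of the 9 roles. Irf7, the factor that amplifies type I interferon production, stood at 24.2 and 17.7 FPKM in NCD and at 11 and 10.1 FPKM in Nor, and rose by 0.94 ± 0.23 (adjusted p = 0.0355). It was the 1 call among 4 factors. Irf9 stood at 13.4 and 11.4 FPKM in NCD and at 9.92 and 10.0 FPKM in Nor (0.30 ± 0.13, adjusted p = 0.152), and Stat2 had 0.17 ± 0.14 (adjusted p = 0.418). Irf1 stood at 15.4 and 16.6 FPKM in NCD and at 8.37 and 15.5 FPKM in Nor (0.47 ± 0.25, adjusted p = 0.233), so its Nor pools differed more from each other than those of the other factors. Parp14, an ADP-ribosyltransferase gene, stood at 10.8 and 9.54 FPKM in NCD and at 7.0 and 5.42 FPKM in Nor, and rose by 0.68 ± 0.17 (adjusted p = 0.0353). Its neighbours on chromosome 16 gave other values. Parp9 stood at 19.0 and 16.4 FPKM in NCD and at 18.4 and 16.5 FPKM in Nor (0.02 ± 0.13), and Dtx3l, whose ubiquitin ligase pairs with PARP9, stood at 14.9 and 14.9 FPKM in NCD and at 16.6 and 15.4 FPKM in Nor (-0.10 ± 0.13). Neither was called.

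**Figure D3:**
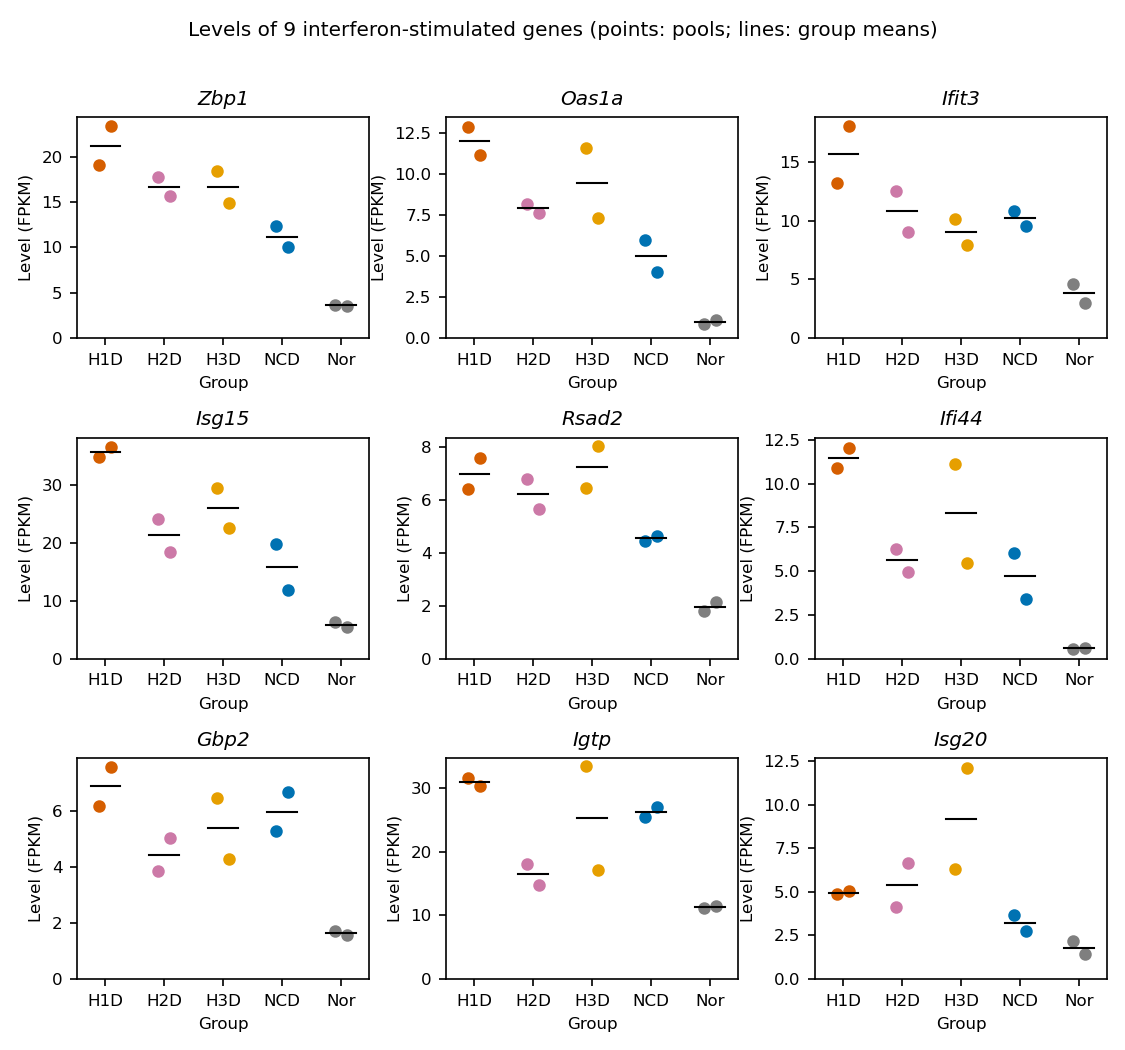
FPKM of 9 members in each pooled library, by group in the order H1D, H2D, H3D, NCD, Nor. Each point is 1 pool and each line a group mean. Nor pools are lowest for all 9 genes, and Isg20 is highest in 1 H3D pool at 12.1 FPKM.

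Each high-fat group was then set against NCD, which asks how livers of DEN-treated mice differ with the high-fat diet and maternal line. In H1D livers 39 of 42 members had a positive log2 change against NCD, with a median of 0.46 beside 0.01 over all tested genes. None of the 42 was called by limma at adjusted p below 0.05, and 0.208% of all genes were called higher and 0.493% lower. At an unadjusted p under 0.05 there were 23 members, and 1986 of all 11557 genes. Both H1D pools stood above both NCD pools for 34 members, against 26.5% of all genes, and for no member did both stand below, against 26.9%.

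Zbp1, Isg15 and Trim30a illustrate the H1D values. Zbp1 stood at 19.1 and 23.3 FPKM in H1D and at 12.4 and 10.0 FPKM in NCD, a log2 change of 0.89 ± 0.15 (adjusted p = 0.0510). Isg15 stood at 34.8 and 36.6 FPKM in H1D and at 19.8 and 11.9 FPKM in NCD (1.19 ± 0.24, adjusted p = 0.0699). Trim30a stood at 8.52 and 9.22 FPKM in H1D and at 4.83 and 3.79 FPKM in NCD (0.97 ± 0.17, adjusted p = 0.0557). These 3 genes, with Oas1a and Oas1g, had the smallest p of the members in H1D against NCD and were not called. By role, the median log2 change in H1D against NCD was 1.02 for the ISG15 system, 0.53 for the IFIT genes, 0.26 for the GTPases and 0.05 for the PARP and DTX3L group.

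In H2D livers the members stood on either side of NCD. The median log2 change was 0.12, 29 of 42 were positive, and none was called by limma, where 2.15% of all genes were called higher and 1.93% lower. At an unadjusted p under 0.05 there were 10 members, and 2289 of all genes. Both H2D pools stood above both NCD pools for 13 members, against 27.3% of all genes, and below for 7, against 29.6%. The GTPases had a median of -0.39, while Oas1a had 0.63, Oas1g 0.56, Oasl2 0.36, Eif2ak2 0.12 and Oasl1 -0.20. Oas1a stood at 8.17 and 7.62 FPKM in H2D and at 5.95 and 4.03 FPKM in NCD, whereas Gbp6 stood at 5.78 and 4.17 FPKM in H2D and at 9.43 and 8.68 FPKM in NCD (log2 change -0.82 ± 0.25, adjusted p = 0.128). Igtp, an immunity-related GTPase gene, stood at 18.1 and 14.7 FPKM in H2D and at 25.4 and 27.0 FPKM in NCD (-0.66 ± 0.26, adjusted p = 0.207). So the H2D pools lay above NCD for Oas1a and below it for both GTPase genes.

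In H3D livers 6 of 42 members rose against NCD and none fell, where 5.04% of all genes were called higher and 9.87% lower. The median log2 change of the members was 0.16, and 30 of 42 were positive. Both H3D pools stood above both NCD pools for 12 members, against 31.1% of all genes, and below for 2, against 32.3%. Isg20 stood at 6.30 and 12.1 FPKM in H3D and at 3.66 and 2.75 FPKM in NCD, a log2 change of 1.33 ± 0.32 (adjusted p = 0.0283). Trim30a stood at 8.48 and 6.45 FPKM in H3D and at 4.83 and 3.79 FPKM in NCD (0.72 ± 0.17, adjusted p = 0.0282). Rsad2 stood at 6.45 and 8.03 FPKM in H3D and at 4.46 and 4.66 FPKM in NCD (0.61 ± 0.15, adjusted p = 0.0310). Isg20 and Rsad2 were higher in the second H3D pool, unlike Trim30a. Oas1g stood at 4.29 and 2.22 FPKM in H3D and at 1.56 and 1.07 FPKM in NCD (1.00 ± 0.27, adjusted p = 0.0419). Zbp1 stood at 18.4 and 14.9 FPKM in H3D and at 12.4 and 10.0 FPKM in NCD (0.55 ± 0.15, adjusted p = 0.0471). Oas1a stood at 11.5 and 7.27 FPKM in H3D and at 5.95 and 4.03 FPKM in NCD (0.84 ± 0.23, adjusted p = 0.0475). For all 6 genes no H3D pool overlapped an NCD pool. With no filter on low values none of the 6 was called, with the groups fitted alone 2 members were, and with equal FPKM sums 11 were. The count of 6 became 1 when NCD replicate 1 was left out, 0 when NCD replicate 2 was, and 3 when either H2D replicate was. Without H3D replicate 1, 2 members were called higher and 3 lower (Igtp at -0.59, Tgtp1 at -1.15 and Gbp6 at -1.02).

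**Figure D4:**
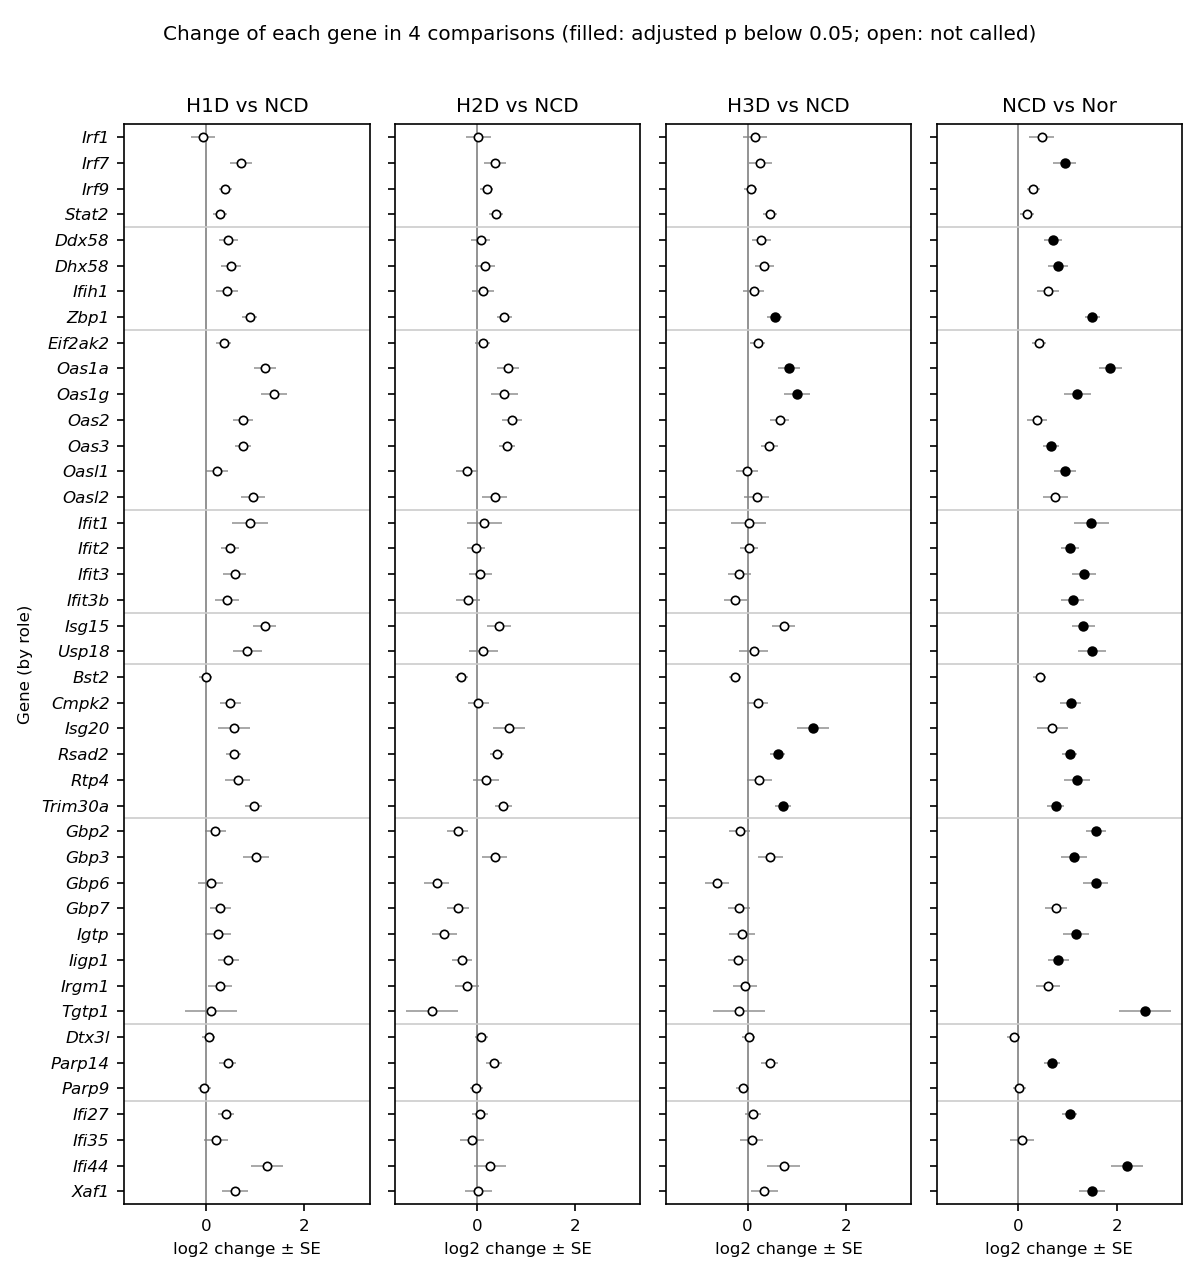
Log2 change with its standard error for each tested member in H1D, H2D and H3D against NCD and in NCD against Nor, on log2(FPKM + 0.5). Filled points are calls at adjusted p below 0.05 (limma). There are 0, 0, 6 and 28 calls in that order, all of them higher.

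The mean of the 3 high-fat groups was higher than NCD for 8 members and lower for none, where 4.23% of all genes were called higher and 7.53% lower. These were Zbp1 (0.67 ± 0.12, adjusted p = 0.0150), Trim30a (0.74 ± 0.14, adjusted p = 0.0158), Oas1a (0.89), Oas1g (0.98), Oas3 (0.60), Rsad2 (0.53), Oas2 (0.71) and Isg15 (0.79). Without Oas2 and Oas3, which passed the filter through the high-fat pools alone, 6 remain. Oas2 stood at 1.44 and 1.81 FPKM in H1D, 1.54 and 1.56 in H2D, 1.88 and 1.14 in H3D and 0.751 and 0.760 in NCD. Oas3 stood at 1.33 and 1.46 FPKM in H1D, 1.26 and 1.18 in H2D, 1.10 and 0.944 in H3D and 0.670 and 0.580 in NCD. For Oas2 and Oas3 every high-fat pool lay above both NCD pools. The filter kept these genes through their high-fat values, so this separation is not separate support. The same limit applies to both genes in the counts of each high-fat group against NCD and of highest or lowest group means. Without 1 library the count of 8 was 5 and 4 (H1D replicates 1 and 2), 3 (either H2D replicate) and 1 and 0 (NCD replicates 1 and 2).

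The 3 high-fat groups share their own diet and differ in the maternal generation and in the cohort bred, which cannot be told apart. No member was called between any pair of them by limma. H2D had a lower value than H1D for 37 of 42 members, with a median log2 change of -0.44, and both H2D pools stood below both H1D pools for 30, against 21.4% of all genes. H3D had a lower value than H1D for 37 members, with a median of -0.32, and both H3D pools stood below both H1D pools for 19, against 24.3%. Calls over all genes were rare, at 0.147% in H2D against H1D, 0.606% in H3D against H1D and 0.511% in H3D against H2D. At an unadjusted p under 0.05 there were 16 members in H2D against H1D (1125 of all genes), 10 in H3D against H1D (1332) and 0 in H3D against H2D (1478). The smallest p in H2D against H1D belonged to GTPase genes. Gbp6 stood at 5.78 and 4.17 FPKM in H2D and at 8.52 and 10.9 FPKM in H1D, a log2 change of -0.91 ± 0.25 (adjusted p = 0.286). Iigp1 stood at 200 and 152 FPKM in H2D and at 321 and 268 FPKM in H1D (-0.75 ± 0.21, adjusted p = 0.294). Neither gene's groups overlapped, and neither was called.

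Across the 5 groups, H1D had the highest mean for 33 of 42 members, where it was highest for 14.7% of all genes. H3D was highest for 6 members (Parp14, Tgtp1, Isg20, Rsad2, Irf1 and Stat2), NCD for Parp9 and Bst2, and Nor for Dtx3l. Nor had the lowest mean for 39 members, where it was lowest for 35.4% of all genes. The order of neighbours was often within the spread of pools. Ifit3, for example, stood at 13.3 and 18.1 FPKM in H1D, 12.6 and 9.09 in H2D, 10.2 and 7.92 in H3D, 10.9 and 9.54 in NCD and 4.61 and 3.02 in Nor, so that H2D, H3D and NCD overlapped. Irf7 stood at 29.1 and 40.2 FPKM in H1D, 31.2 and 23.2 in H2D, 28.7 and 21.3 in H3D, 24.2 and 17.7 in NCD and 11 and 10.1 in Nor, with each neighbouring pair of groups above Nor overlapping. Bst2 stood at 195 and 202 FPKM in H1D, 171 and 149 in H2D, 177 and 159 in H3D, 224 and 179 in NCD and 150 and 147 in Nor, where both H1D pools lay between the NCD pools.

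In H3D, H2D, NCD and H1D most members moved the same way between the pools of the group. In H3D the first pool stood above the second for 40 of 42 members, with a median log2 difference of 0.38, where it did so for 43.6% of all genes. The exceptions were Isg20 (-0.89) and Rsad2. In H2D the first pool was higher for 37 members (median 0.28), beside 51.9% of all genes. In NCD it was higher for 34 (median 0.22), beside 52.7%. In H1D it was higher for 7 (median -0.13), beside 51.6%, and in Nor for 25 (median 0.06), beside 51.2%. The median absolute difference between pools in H3D was 0.39 for the members and 0.14 for all genes, while in Nor it was 0.20 for both. All 8 GTPases were higher in the first H3D pool, with a median difference of 0.72, while 4 of 8 were in NCD (median -0.02). Tgtp1 differed most, at 13.6 and 3.14 FPKM in the H3D pools. Since members share the pool, such shifts enter every member's value at once.

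The genes that produce and carry the interferon signal were read from separate lists. None of 11 interferon ligand genes passed the filter, and 8 of them (Ifna1, Ifna2, Ifna4, Ifna5, Ifnb1, Ifne, Ifnl2 and Ifnl3) were listed at 0 in every library. Ifng, the gene for interferon gamma, reached at most 0.294 FPKM. Ifnk, the gene for interferon kappa, was the most abundant ligand gene, at 0.329 to 1.36 FPKM over the 10 libraries. Of 8 tested genes for receptors and JAKs, 2 rose in NCD against Nor, namely Ifngr1, a chain of the interferon gamma receptor (1.18 ± 0.14), and Il10rb, which is also a chain of the interferon lambda receptor (0.71 ± 0.12). None of 12 tested genes for sensing, adaptors and kinases was called in NCD against Nor. Of 9 tested negative regulators, Socs1, an inhibitor of JAKs (1.55), Trex1 (0.53) and Samhd1 (0.47) rose. Irf2, a repressing factor, fell by 0.43 on the log2 scale. In the same comparison 7.93% of all genes were called higher and 6% lower.

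Of 37 further interferon-induced genes tested outside the 44, 14 rose in NCD against Nor (7.93% of all genes) and none fell (6%). Ly6e (1.37 ± 0.14, adjusted p = 0.00136), Ifi27l2a (1.51), Gbp9 (1.22) and Lgals3bp (0.74) had the smallest p. Of 12 tested interferon gamma targets of antigen presentation and chemokines, 7 rose, beside the same 7.93% of all genes. These included the chemokine genes Cxcl9 (2.61 ± 0.40) and Cxcl10 (2.28 ± 0.32), the immunoproteasome gene Psmb9 (1.06) and the peptide transporter gene Tap1 (1.11). In each high-fat group against NCD, none of these 12 was called. In H2D against NCD 5 of the 37 further genes rose and none fell, where 2.15% of all genes were called higher and 1.93% lower. These calls in H2D included Slfn2 (0.88) and Shisa5 (0.86). In the separate list for sensing, adaptors and kinases, 2 of 12 tested genes rose in H2D against NCD, beside the same 2.15%. They were Tlr8 (1.11) and Tlr7 (1.04), receptors for single-stranded RNA. In H3D against NCD 5 of the 37 rose and 1 fell, where 5.04% of all genes were called higher and 9.87% lower. These calls in H3D included Shisa5 (1.07), Ly6e (0.95) and Slfn2 (0.92) as higher and Apol9b (-1.0) as lower. Of the 12 genes for sensing, adaptors and kinases, 2 rose in H3D against NCD, Tlr8 (1.01) and Tlr7 (0.94), beside the same 5.04%. Slfn2 (0.86) was the single call of these lists in H1D against NCD, where 0.208% of all genes were called higher and 0.493% lower.

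Markers of other cell types moved beside these genes. The summed FPKM of 14 T and NK cell markers was 28.7 and 30.8 in H1D, 18.3 and 18.9 in H2D, 40.8 and 20.7 in H3D, 26.3 and 32.8 in NCD and 4.19 and 7.82 in Nor. The summed FPKM of the GTPases was 443 and 404 in H1D, 289 and 222 in H2D, 363 and 223 in H3D, 324 and 316 in NCD and 183 and 165 in Nor. Both sums were lowest in Nor, and the H2D sums lay below those of H1D and NCD. Iigp1 alone supplied most of the GTPase sum in every library, from 114 FPKM in the second Nor pool to 321 FPKM in the first H1D pool. The order of the GTPase sums therefore mainly follows that gene. Taken gene by gene, both H2D pools stood below both NCD pools for 6 of the 8 tested GTPases, against 29.6% of all genes. They stood above for 1, against 27.3%. Of 6 tested T and NK markers, 3 rose in NCD against Nor, beside 7.93% of all genes, namely Ccl5 (2.64), Nkg7 (1.59) and Gzma (1.51). Cd3g (1.1), Cd3e (1.03) and Gzmb (0.68) were not called. Ccl5, a chemokine gene, took much of the sum, with 18.5 and 18.5 FPKM in H1D, 10.8 and 9.96 in H2D, 26.2 and 13.1 in H3D, 16 and 18.8 in NCD and 1.97 and 2.83 in Nor. No T and NK marker was called in H2D against H1D, where Ccl5 had -0.80, Gzma -1.0, Nkg7 -0.26, Gzmb -0.17, Cd3e -0.10 and Cd3g -0.05. The macrophage and Kupffer cell sum (12 genes) was 544 and 707 in H1D, 752 and 797 in H2D, 560 and 867 in H3D, 468 and 370 in NCD and 241 and 328 in Nor, and Mpeg1, a pore-forming protein gene of macrophages, rose by 1.69 ± 0.10 in NCD against Nor. It was the 1 call among the 12 macrophage markers, where 7.93% of all genes were called higher. The median log2 change of these 12 markers was 0.49, and the Kupffer cell marker Clec4f had -0.01. The neutrophil sum (10 genes) was 19.6 and 108 in H1D, 466 and 563 in H2D, 307 and 922 in H3D, 30.2 and 11.4 in NCD and 3.83 and 13.1 in Nor. Unlike the GTPase sum, the neutrophil sum was highest in H2D and H3D. The B and plasma cell sum (6 genes) ranged from 16.6 to 61.1 in the DEN groups, against 3.28 and 7.21 in Nor. Jchain made up most of it (13.9 to 56.1 FPKM in the DEN groups, against 2.34 and 5.67 FPKM in Nor), and none of the 4 tested markers was called in NCD against Nor (limma, Jchain adjusted p = 0.0663), with 2 at an unadjusted p under 0.05. Of 8 hepatocyte markers, Tat, Cps1 and Pck1 fell in NCD against Nor, where 6% of all genes were called lower. The 5 others were not called, namely Apoa1 (0.64, limma adjusted p = 0.0513), Fgb (0.25), Alb (0.05), Apob (-0.13) and Ttr (-0.36, adjusted p = 0.0654). The plasmacytoid dendritic cell sum (7 genes) was 141 to 321 in the DEN groups, against 7.31 and 9.85 in Nor. Most of it in the DEN groups was Ly6d, at 129 and 147 FPKM in NCD and 0.444 and 1.03 FPKM in Nor, which rose by 6.85 ± 0.33 (adjusted p = 3.25e-05). Tcf4 had 0.45 ± 0.13 (adjusted p = 0.0561), and Siglech, a defining marker of these cells, stood between 0.0657 and 0.725 FPKM over all libraries. What part these cell types had in the members' values was not tested.

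**Figure D5:**
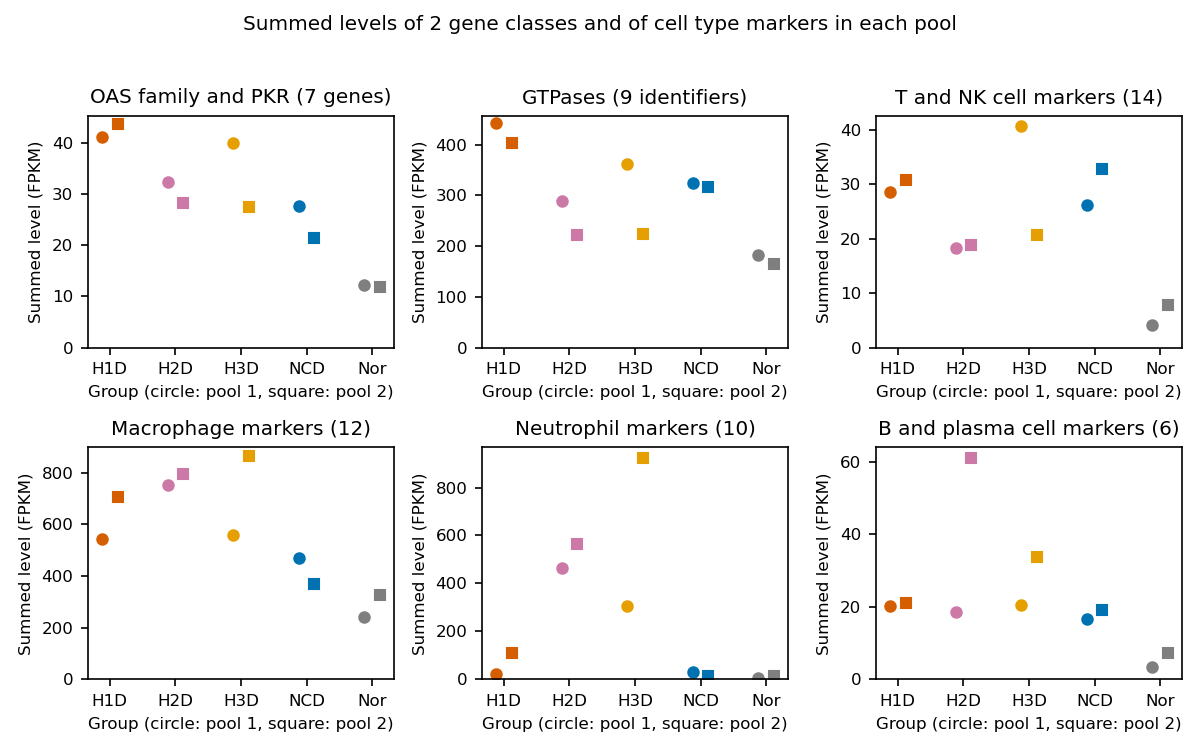
Summed FPKM of 2 member classes and of cell type marker lists in each pooled library, by group in the order H1D, H2D, H3D, NCD, Nor. Each point is 1 pool. T and NK markers were lowest in Nor (4.19 and 7.82), and neutrophil markers highest in H2D and H3D.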

How the data were processed

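Long RNA of pooled mouse livers was measured by sequencing after removal of ribosomal RNA, with paired reads of 125 nt, per the labels' protocols. The authors deposited FPKM per transcript in a table of mRNA transcripts. The submitters' processing notes name TopHat2 2.0.9 and Bowtie2 2.0.6, Cuffdiff 2.1.1 and Cufflinks 2.1.1, SAMtools 0.1.18, Picard 1.96, GATK and the GRCm38 build, without order or role. The number of reads is not given, and FPKM carry no depth, so precision rests on the 2 pools per group.

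Transcript FPKM were summed per gene identifier, and a gene was kept when 2 or more libraries had 1 FPKM or more. Values were analysed as log2(FPKM + 0.5), which understates the change of low genes, with limma 3.58.1 in R 4.3.3. The fit had 1 coefficient per group over all 10 libraries (5 residual degrees of freedom) and a variance trend, and adjusted p below 0.05 over all tested genes was a call. Tests were two-sided. The fit was checked on simulated data. Percentages of all genes are over the 11557 genes tested.

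The members and gene lists were chosen with earlier results of these data known. Within each role, values are given for the 3 members with the smallest p in NCD against Nor, for members called in other comparisons (up to 8 each), and for further members as the text needed, these chosen after their values were seen. Promoters are those of 6 members with the smallest p that hold an ISRE core in the RefSeq promoter table, outside chromosome 18. Coordinates are RefSeq positions on GRCm38. Other scalings, pseudocounts, filters, single transcripts, each group pair alone, a replicate block and leaving out each library were tried as alternatives. The remaining deposited tables (noncoding RNA and small RNA) were not used here. The result for 1 further signalling gene is not reported here.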

Additional observations from a re-analysis of the deposited data

Results flagged for a closer look

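Igtp, Iigp1 and Gbp7, all interferon-inducible GTPase genes, stood on opposite sides of NCD in the H2D and H1D groups, which share their own diet: every H2D pool lay below both NCD pools and every H1D pool above them. These genes were picked from the members for this pattern, and its share over all genes was not counted. Taken singly, both H1D pools lay above NCD for 26.5% of all genes and both H2D pools below for 29.6%. The log2 change of H2D against H1D was -0.90 for Igtp, -0.75 for Iigp1 and -0.68 for Gbp7. The direct limma test of H2D against H1D, with 2 pools per group in the fit of all 10 libraries, called none of the 3. Its adjusted p was 0.298 for Igtp, 0.294 for Iigp1 and 0.369 for Gbp7. Igtp alone was called when an H3D library was left out of the fit, with adjusted p of 0.0439 without H3D replicate 1 and 0.0456 without H3D replicate 2. The T and NK cell marker sum was 18.3 and 18.9 FPKM in H2D, against 28.7 and 30.8 FPKM in H1D. Ccl5 made up much of that difference, at 10.8 and 9.96 FPKM in H2D and 18.5 and 18.5 FPKM in H1D. The log2 changes of the tested markers were -1.0 for Gzma, -0.80 for Ccl5, -0.26 for Nkg7, -0.17 for Gzmb, -0.10 for Cd3e and -0.05 for Cd3g. No marker of this list was called, and its part was not tested.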

How the results depend on the processing

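The 28 members called in NCD against Nor became 16 with no filter on low values, 13 with quantile scaling, 14 with these groups fitted alone and 17 counting members with a called transcript. Leaving out 1 library gave 4 to 28. For H1D against NCD the count of 0 became 1 with a pseudocount of 1, 1 with a mean of at least 5 FPKM, 2 with equal FPKM sums, 1 with quantile scaling and 2 with the replicate block, and was 0 to 2 without 1 library. For H2D against NCD it became 2 (both lower, Igtp and Gbp6) with the groups fitted alone, and was 0 to 1 without 1 library. For H3D against NCD the 6 calls became 0 with no filter, 11 with equal FPKM sums, 2 with the groups fitted alone and 1 by transcripts, and were 0 to 7 without 1 library. For the mean of the high-fat groups against NCD the 8 calls became 5 with no filter, 5 with a mean of at least 5 FPKM and 4 by transcripts, and were 0 to 10 without 1 library. For H2D against H1D the count was 0 to 1 without 1 library, and for H3D against H1D and H3D against H2D it was 0 to 0. Of 42 called values, quantile scaling kept 25, lost 16 and reversed that of Oas3 in NCD against Nor, to -0.13 (adjusted p = 0.623). No leave-one-out fit reversed a called value, and 149 of 420 lost the call. Equal FPKM sums moved the median of all genes by 0.16 in NCD against Nor and by 0.20 in H3D against NCD. The cause of these shifts was not tested. Same-numbered pools shared deviations from their group means with r of -0.0533 to 0.225, so the numbers were not taken as pairing. With the replicate block the counts were 29 in NCD against Nor, 8 in H3D against NCD and 8 for the mean of the high-fat groups. Depth is unknown, so what it limits could not be given.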
